A study of Mus musculus with 8 samples.

Results

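The genes described here encode 9 receptors through which myeloid cells sense and follow chemical cues: the formyl peptide receptors Fpr1 and Fpr2, the anaphylatoxin receptors C5ar1, C5ar2 and C3ar1, and the chemokine receptors Ccr1, Ccr2, Ccrl2 and Cxcr4. They were taken by gene symbol from the 55385 rows of the count table, and all 9 had enough counts to be among the 17537 genes tested. RNA sequencing was performed on primary cultured microglia, the macrophages of the brain, which were grown from the pooled neocortices and hippocampi of newborn wild-type mice and shaken off a mixed glial culture. The control group (untreated in the labels, PBS in the methods) and the IgG group (10 µg/ml IgG for 24 h at DIV15) had 4 libraries each. The mixed culture was grown in medium with fetal bovine serum, while the methods name no medium for the replated microglia. Libraries of equal replicate number carry 1 date across the groups and were treated as 4 pairs.

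Formyl peptide receptors bind short peptides that begin with formylmethionine, which are made by bacteria and by mitochondria. The anaphylatoxins C3a and C5a are cleaved from complement proteins C3 and C5, and chemokines are small secreted proteins that direct the movement of leukocytes. Most of these receptors couple to Gi proteins, whose subunits activate phosphoinositide 3-kinase gamma, Rac and phospholipase C beta, and thereby steer movement, the oxidative burst and degranulation. C5ar2 and Ccrl2 are atypical members that bind their ligand without the usual G protein signal. In the brain, microglia are known to carry the receptors for C3a and C5a, whereas Ccr2 is best known from blood monocytes.

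Library totals ran from 21287816 to 23703216 counts. At these totals 3 counts, the most that an observed 0 allows, were 0.127 to 0.141 CPM (counts scaled by library size). This floor is without the TMM scaling that the other CPM values carry, so it is approximate beside them. The mitochondrial share of counts was 4.85% in IgG library 1, 5.59% in IgG library 3 and 1.97% to 2.41% elsewhere. Of the microglia markers, Csf1r ranged from 1091 to 1286 CPM in control libraries and from 1171 to 1744 CPM with IgG, and Trem2 from 755 to 887 and from 564 to 1113 CPM, while P2ry12 and Tmem119 lay between 4.69 and 16.0 CPM and Siglech was at 0 to 0.373 CPM in every library. Aif1 and Fcrls rose with IgG, with log2 fold changes of 0.69 and 0.83 (adjusted p = 0.0331 and 0.0329 in edgeR, fitted within pairs), while Csf1r, Trem2, Cx3cr1, P2ry12, Tmem119, Itgam, Sall1 and Gpr34 did not pass adjustment. In such bulk samples, more cells of a type and more RNA per cell cannot be told apart.

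Fpr1 and Fpr2 were the receptors that rose with IgG. Fpr1 increased 3.31-fold and Fpr2 2.55-fold in the fit that compares the libraries within pairs, and for both genes the lowest IgG library lay above the highest control library. C3ar1 and C5ar1 were higher with IgG in each pair, by 0.54 and 0.41 on the log2 scale, but did not pass adjustment over all genes. Ccr2 was lower in each pair from a low level. C5ar2, Ccr1, Ccrl2 and Cxcr4 had fitted log2 fold changes between -0.07 and 0.18, none past its standard error (SE).

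**Figure D1:**
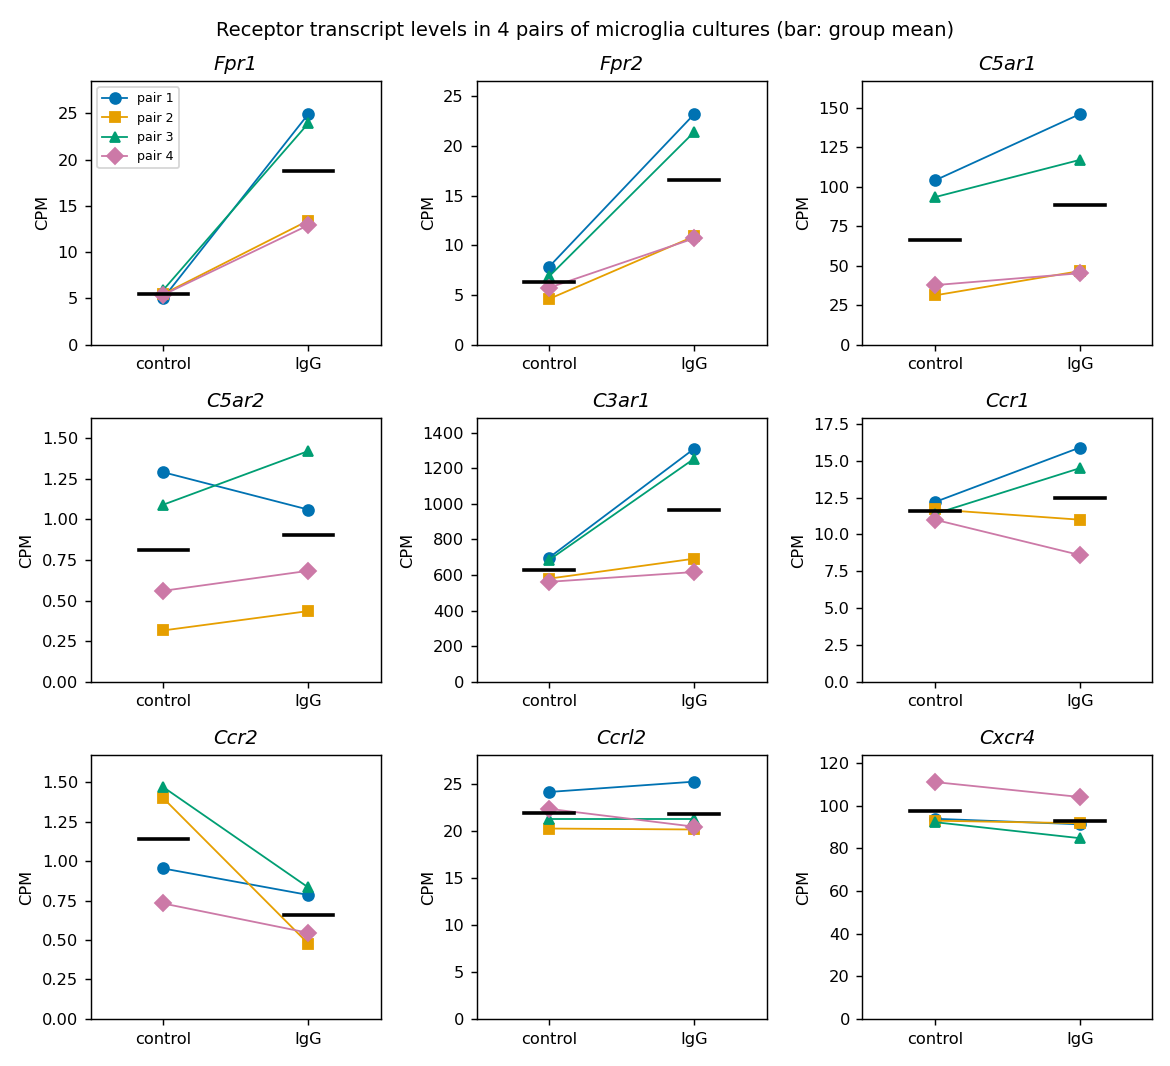
Levels of the 9 receptor genes in CPM (vertical axes, linear from 0, a scale for each gene) in control and IgG libraries. Lines join the libraries of a pair and black bars are group means of 4 libraries. Fpr1 and Fpr2 separate the groups completely, and pairs 1 and 3 lie above pairs 2 and 4 for C5ar1 in both groups.

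Fpr1 (ENSMUSG00000045551) encodes the high-affinity receptor for bacterial formyl peptides and lies on chromosome 17 of GRCm38, 17876471 to 17883940, minus strand. The start sites of Fpr1 and of Fpr2, the next gene described, face away from each other. The 250 bases before the starts of these genes are given here, 5′ to 3′ on the strand of each gene, as RefSeq lists them on GRCm38.p6 (chr17:17883940-17884189 on the minus strand and chr17:17887574-17887823 on the plus strand). Capitals mark a match to a gamma-activated site, TTCNNNGAA, to which STAT factors can bind. The match is in Fpr2, Fpr1 has none, and 7.02% of such windows over all genes hold this motif.
Fpr1: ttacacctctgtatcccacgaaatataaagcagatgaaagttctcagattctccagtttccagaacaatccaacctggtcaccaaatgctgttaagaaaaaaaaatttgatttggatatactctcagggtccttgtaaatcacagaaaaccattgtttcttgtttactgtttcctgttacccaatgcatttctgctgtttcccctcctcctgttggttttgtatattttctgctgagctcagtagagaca
Fpr2: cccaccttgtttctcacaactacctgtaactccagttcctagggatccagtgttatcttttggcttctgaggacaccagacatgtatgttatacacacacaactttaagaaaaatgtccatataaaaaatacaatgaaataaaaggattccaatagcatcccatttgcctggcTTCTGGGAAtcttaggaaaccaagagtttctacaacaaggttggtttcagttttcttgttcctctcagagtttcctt

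Fpr1 was at 5.02, 5.46, 5.90 and 5.38 CPM in control libraries 1 to 4 and at 24.9, 13.4, 23.9 and 12.9 CPM in IgG libraries 1 to 4. The controls were close together, with the highest 1.18 times the lowest, whereas the IgG libraries fell into a higher set, 1 and 3, and a lower set, 2 and 4. The group levels were 5.44 ± 0.364 CPM in control and 18.8 ± 6.51 CPM with IgG (SD, n = 4 each). The fitted log2 fold change was 1.73 (SE 0.197, adjusted p = 0.0145 by the quasi-likelihood test of edgeR with the replicate block, adjusted by Benjamini-Hochberg over all genes). Without the block it was 1.79, with an adjusted p of 0.109 in edgeR. Within pairs 1 to 4 the log2 difference was 2.29, 1.29, 2.00 and 1.25.

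Fpr2 (ENSMUSG00000052270; chromosome 17, 17887824 to 17893952, plus strand) encodes a receptor with a broad range of ligands, among them annexin A1, serum amyloid A and formyl peptides. Its levels were 7.84, 4.60, 6.87 and 5.73 CPM in control libraries 1 to 4 and 23.2, 10.9, 21.4 and 10.7 CPM in IgG libraries 1 to 4. The lowest IgG library was above the highest control library, and libraries 1 and 3 were the higher ones in both groups. The group levels were 6.26 ± 1.40 and 16.6 ± 6.69 CPM (SD, n = 4 each). The fitted log2 change was 1.35 (SE 0.152, adjusted p = 0.0145 in edgeR with the block and 0.492 without it). The changes within pairs 1 to 4 were 1.56, 1.22, 1.63 and 0.90.

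Of the 9 receptors, 2 thus had an adjusted p under 0.05, against 69 of all genes tested that rose (0.393%), and no gene fell. Both calls rested on the pairing and on the pairs included. Without the block 0 of the 17537 genes passed in edgeR, where 1230 had an unadjusted p under 0.05. With the block, neither gene passed when replicate 2 was left out (adjusted p = 0.149 for Fpr1 and 0.183 for Fpr2 in edgeR), Fpr1 passed when any other pair was left out, and Fpr2 missed the threshold without replicate 1 (0.0629) or replicate 3 (0.0543). The size of the change moved little in these fits, from 1.53 to 1.87 for Fpr1 and from 1.25 to 1.48 for Fpr2 over 13 alternatives. The same 2 genes were the members whose groups did not overlap with IgG higher, a separation found for 2.6% of all genes tested.

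The relation between the formyl receptors was compared per length, since Fpr1 has 1324 and Fpr2 1296 exonic bases. The ratio of Fpr1 to Fpr2 per kb of exon was 0.627, 1.16, 0.842 and 0.920 in control libraries 1 to 4 and 1.05, 1.21, 1.09 and 1.17 in IgG libraries 1 to 4. It was thus higher with IgG within every pair, although the groups overlapped through control library 2. In pair 2 it moved only from 1.16 to 1.21, with 121 Fpr1 and 102 Fpr2 counts in the control library. Whether the ratio changed was not tested. Across the 8 libraries the log2 levels of Fpr1 and Fpr2 had a Pearson r of 0.949, a description of libraries that share dates and treatment.

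The genomic neighbourhood limits how far the formyl receptors can be read as separate genes. Fpr1 and Fpr2 are 3883 bases apart on opposite strands. Fpr2 shares 48 exonic bases, 3.7% of its exons, with Fpr3 on the same strand, and the Fpr genes are similar in sequence, so that reads could have been shared or dropped in counting. Fpr3, a receptor of the same cluster, was itself at 1.73 ± 0.481 CPM in control and 2.90 ± 0.708 CPM with IgG (SD, n = 4 each). The fitted log2 change of Fpr3 was 0.75 (SE 0.205, adjusted p = 0.296 in edgeR with the block).

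IgG libraries 1 and 3, which had the highest Fpr1 and Fpr2 levels, were also those with the high share of mitochondrial counts given above, and the part of this in the size of the change was not tested. In pairs 2 and 4, where that share was 1.97% to 2.38%, the mean within-pair log2 change was 1.27 for Fpr1 and 1.06 for Fpr2, against 2.15 and 1.59 in pairs 1 and 3. Each pair also has its own date, so date and mitochondrial share cannot be told apart, here or where this split recurs below. Neutrophils carry both receptors in abundance, and their defining genes S100a9, Ly6g, Retnlg, Ngp, Ltf, Elane and Mpo had at most 3 counts in every library. The summed level of the 11 neutrophil markers was 1.53 to 2.51 CPM in control and 2.01 to 3.37 CPM with IgG. The 2 neutrophil markers that were tested, S100a8 (0.498 to 1.55 CPM in control and 1.03 to 2.00 CPM with IgG) and Mmp8 (0.461 to 0.861 and 0.91 to 0.957 CPM), had log2 fold changes of 0.34 and 0.52 and did not pass adjustment (adjusted p = 0.702 and 0.564 in edgeR with the block). The part of this list in the changes of Fpr1 and Fpr2 was not tested. Of 8 markers of border-associated macrophages, the macrophages of the meninges and vessels, 6 were tested and 1, Ms4a7, rose (log2 fold change 0.61, adjusted p = 0.0381 in edgeR with the block), with 3 higher at an unadjusted p under 0.05 (0.393% and 6.35% of all genes). Their summed level was 941 to 1116 CPM in control and 1075 to 1476 CPM with IgG, while Cd163 and Lyve1 stayed at or under 0.225 CPM in every library. The part of this list in the changes of the receptors was not tested.

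**Figure D2:**
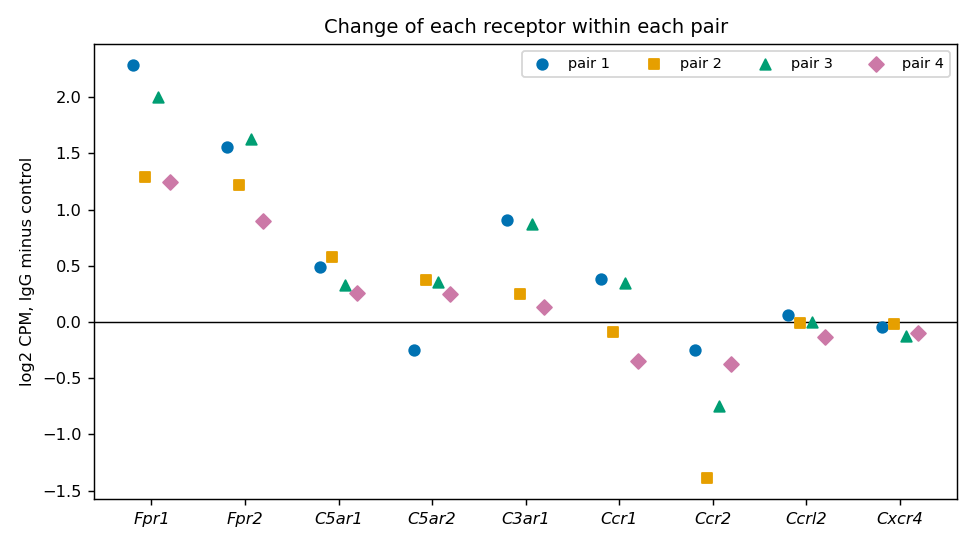
Difference in log2 CPM between the IgG and the control library of each pair (vertical axis) for each receptor. Each point is 1 pair. Fpr1 and Fpr2 are at or above 0.90 in every pair, C3ar1 splits into pairs 1 and 3 (0.91 and 0.87) and pairs 2 and 4 (0.25 and 0.13), and the 4 points of Cxcr4 lie between -0.12 and -0.02.

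C3ar1 (ENSMUSG00000040552; chromosome 6, 122847138 to 122856161, minus strand) encodes the receptor for C3a. Its levels were 698, 580, 685 and 562 CPM in control libraries 1 to 4 and 1310, 692, 1254 and 617 CPM in IgG libraries 1 to 4. IgG libraries 1 and 3 stood far above all others, while IgG libraries 2 and 4 were within the control range. The group levels were 631 ± 70.0 and 968 ± 364 CPM (SD, n = 4 each). The log2 fold change of 0.54 (SE 0.152, unadjusted p = 0.00704, adjusted p = 0.307 in edgeR with the block) met the criterion of the study, an unadjusted p under 0.01 and an absolute log2 fold change over 0.5. It did not meet it without the block, where the change was 0.62 and the unadjusted p 0.0272 in edgeR. The change averaged 0.89 in pairs 1 and 3 and 0.19 in pairs 2 and 4, the same split as the mitochondrial share, whose part in it was not tested. Control libraries 1 and 3 were also above control libraries 2 and 4, with a mitochondrial share of 2.32% to 2.41% in the controls.

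By that criterion 3 of the 9 receptors were higher with IgG (Fpr1, Fpr2 and C3ar1), against 1.48% of all genes tested. Without the block 2 met it (Fpr1 and Fpr2), against 0.582% of all genes. C3ar1 also missed it, with the block, when libraries were scaled by totals alone, when trends on GC content and length were removed, and without replicate 1, 2 or 3. The 250 bases before the C3ar1 start are given because C3ar1 is the third of these genes (chr6:122856158-122856407, minus strand, GRCm38.p6, RefSeq). Capitals mark, in order, a match to the AP-1 site TGANTCA and, 1 base after it, a match to the NF-kB core (GGG, any 2 bases, TTTCC) on the other strand, where it reads here as GGAAAGGCCC.
C3ar1: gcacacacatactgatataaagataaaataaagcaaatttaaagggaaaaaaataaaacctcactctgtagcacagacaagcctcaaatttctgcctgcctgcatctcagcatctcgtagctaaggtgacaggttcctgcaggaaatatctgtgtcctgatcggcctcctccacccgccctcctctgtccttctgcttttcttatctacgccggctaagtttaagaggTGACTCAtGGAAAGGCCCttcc

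In the 12 windows that RefSeq lists for the 9 genes, both strands were searched for 5 motifs. The matches were TTCTGGGAA in Fpr2, 77 to 69 bases before its start, TGACTCA in C3ar1, 22 to 16 bases before its start, and GGAAAGGCCC in C3ar1, 14 to 5 bases before it. They do not overlap. The interferon-stimulated response element (GAAA, any 2 bases, GAAA) and the PU.1-type site GAGGAAGT had no match in these windows. Of 32851 windows of the same length over all genes, 7.02% held TTCNNNGAA, 6.75% TGANTCA, 1.41% the NF-kB core, 2.98% the interferon-stimulated response element and 2.44% GAGGAAGT. A match is a description of the letters and not of binding.

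C5ar1 (ENSMUSG00000049130; chromosome 7, 16246743 to 16259540, minus strand) encodes the main signalling receptor for C5a. It was at 104, 31.2, 93.4 and 37.7 CPM in control libraries 1 to 4 and at 146, 46.6, 117 and 45.2 CPM in IgG libraries 1 to 4. The dates differed more than the treatments, with libraries 1 and 3 above libraries 2 and 4 in both groups and the highest control 3.33 times the lowest. The group means of 66.5 ± 37.4 and 88.7 ± 50.8 CPM (SD, n = 4 each) therefore overlapped widely. Within pairs 1 to 4 the log2 change was 0.49, 0.58, 0.33 and 0.26.

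Fitted within pairs, the log2 fold change of C5ar1 was 0.41 (SE 0.0936, unadjusted p = 0.00215, adjusted p = 0.17 in edgeR). Without the block the estimate was the same 0.41, but its standard error was 0.479 (adjusted p = 0.81 in edgeR). Unlike that of C3ar1, the change averaged alike in pairs 1 and 3 (0.41) and in pairs 2 and 4 (0.42). The summed level of 7 oligodendrocyte lineage markers ran the other way across the dates, at 985 to 1175 CPM in libraries 1 and 3 and at 1520 to 1735 CPM in libraries 2 and 4 of both groups. Whether this bears on the level of C5ar1 was not tested.

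C5ar2 (ENSMUSG00000074361; chromosome 7, 16234585 to 16244154, minus strand), which encodes the other receptor for C5a, lies 2588 bases from C5ar1. Its levels were 1.29, 0.316, 1.09 and 0.560 CPM in control libraries 1 to 4 and 1.06, 0.435, 1.42 and 0.683 CPM in IgG libraries 1 to 4, from 7 to 31 counts per library. Libraries 1 and 3 were again the higher ones in both groups, as for C5ar1, and the Pearson r between these neighbours over the 8 libraries was 0.913. The log2 fold change was 0.18 (SE 0.284, adjusted p = 0.836 in edgeR with the block), and 3 of 4 pairs were higher with IgG.

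None of the chemokine receptors passed adjustment. Ccr2 (ENSMUSG00000049103; chromosome 9, 124101950 to 124113557, plus strand), the receptor for Ccl2, had 23, 31, 35 and 17 counts in control libraries 1 to 4 and 17, 11, 17 and 12 counts in IgG libraries 1 to 4. These are 1.14 ± 0.353 CPM in control and 0.661 ± 0.175 CPM with IgG (SD, n = 4 each), and the groups overlapped. The log2 fold change was -0.76 (SE 0.309, unadjusted p = 0.0379, adjusted p = 0.472 in edgeR with the block), where 3.85% of all genes were lower at an unadjusted p under 0.05. It did not pass adjustment. Of the monocyte markers, Ly6c2, Plac8 and Chil3 had at most 3 counts in every library. Among all genes tested, 8928 were lower with IgG and 8609 higher. The members of the monocyte list that were tested had log2 fold changes below 0: Fn1 -0.39, F13a1 -0.31, Hp -0.21 and Vcan -0.06. None passed adjustment in edgeR with the block (adjusted p = 0.367, 0.74, 0.721 and 0.913). Of these 4 tested markers, 1 was lower at an unadjusted p under 0.05 in that fit, where 3.85% of all genes were. The matrix gene Fn1 was at 666 to 1266 CPM in control and 586 to 851 CPM with IgG, while over all libraries Vcan was at 28.9 to 55.7, Hp at 1.99 to 4.51 and F13a1 at 0.231 to 0.775 CPM. The part of these markers in the Ccr2 values was not tested.

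Ccr1 (ENSMUSG00000025804; chromosome 9, 123962124 to 123968692, minus strand), a receptor for Ccl3, Ccl5 and Ccl7, was at 12.2, 11.7, 11.4 and 11.0 CPM in control libraries 1 to 4 and at 15.9, 11.0, 14.5 and 8.60 CPM in IgG libraries 1 to 4. The controls were nearly level, and the IgG libraries spread to both sides of them. The within-pair change averaged 0.36 in pairs 1 and 3 and -0.22 in pairs 2 and 4, again along the split of the mitochondrial share, whose part in it was not tested. The fitted value of 0.08 (SE 0.152, adjusted p = 0.866 in edgeR with the block) therefore averages pairs of opposite sign. It was -0.02 when libraries were scaled by their totals alone. Ccr1 lies 133257 bases from Ccr2.

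Ccrl2 (ENSMUSG00000043953; chromosome 9, 111054486 to 111057519, minus strand) encodes an atypical receptor that presents the chemoattractant chemerin. It was at 24.2, 20.3, 21.3 and 22.4 CPM in control libraries 1 to 4 and at 25.3, 20.2, 21.3 and 20.5 CPM in IgG libraries 1 to 4. The groups overlapped almost fully. The log2 fold change was -0.02 (SE 0.096, adjusted p = 0.951 in edgeR with the block).

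Cxcr4 (ENSMUSG00000045382; chromosome 1, 128588199 to 128592293, minus strand), the receptor for Cxcl12, was abundant and nearly level. Its values were 93.8, 92.9, 92.2 and 111 CPM in control libraries 1 to 4 and 91.2, 91.7, 84.7 and 104 CPM in IgG libraries 1 to 4, so that replicate 4 was highest in both groups. The log2 fold change was -0.07 (SE 0.0826, adjusted p = 0.762 in edgeR with the block), although each pair was slightly lower with IgG. Over the 13 alternatives the value stayed between -0.17 and -0.05.

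**Figure D3:**
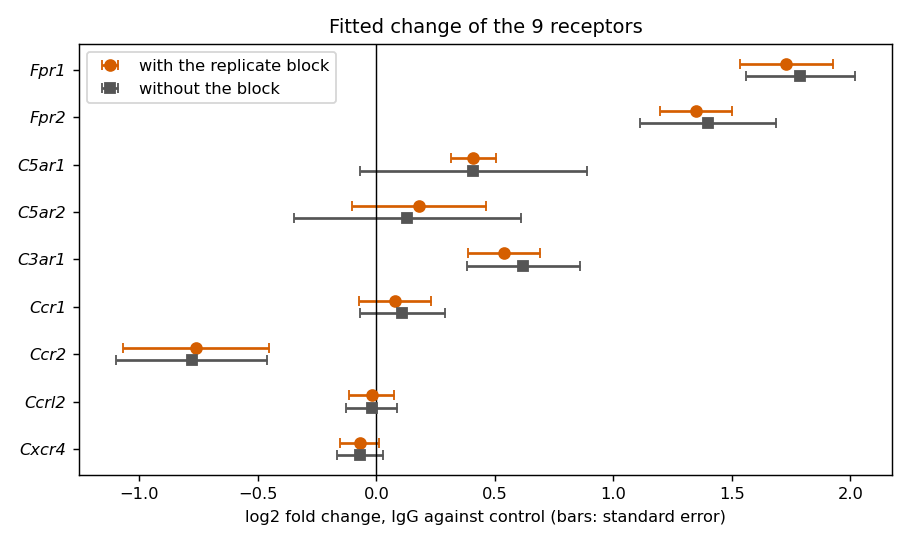
Fitted log2 fold change of IgG against control (horizontal axis) with its standard error, from edgeR with the replicate block (circles) and without it (squares), over 8 libraries. The estimates of the fits lie close together, from -0.76 and -0.78 for Ccr2 to 1.73 and 1.79 for Fpr1, while the standard error of C5ar1 falls from 0.479 to 0.0936 with the block.

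In direction, 4 of the 9 receptors were higher in all 4 pairs (Fpr1, Fpr2, C3ar1 and C5ar1), where 10.4% of all genes tested were. In all 4 pairs 2 were lower (Ccr2 and Cxcr4), against 8.47% of all genes. The median log2 fold change was 0.18 over the 9 receptors and -0.01 over all genes tested.

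Per kb of exon, the receptors differed widely in level. In control libraries C3ar1 was highest, with 147 ± 16.3 CPM per kb (SD, n = 4), followed by Cxcr4 with 54.0 ± 5.13 and C5ar1 with 25.9 ± 14.5. Then came Ccrl2 (8.49 ± 0.641), Fpr2 (4.83 ± 1.08), Fpr1 (4.11 ± 0.275) and Ccr1 (4.09 ± 0.187 CPM per kb). C5ar2 (0.228 ± 0.127) and Ccr2 (0.168 ± 0.0522 CPM per kb) were lowest. The ranges of the neighbours Fpr2 and Fpr1, of Fpr1 and Ccr1, and of C5ar2 and Ccr2 overlapped, while the other neighbours were separated in all control libraries.

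With IgG the order changed at the formyl receptors. Fpr1 reached 14.2 ± 4.92 and Fpr2 12.8 ± 5.16 CPM per kb, above Ccrl2 at 8.39 ± 0.913 (SD, n = 4 each), which left them in places 4 and 5 and Ccrl2 in place 6. The ranges of Fpr1 and Fpr2, of Fpr2 and Ccrl2, of C5ar1 and Fpr1, of Cxcr4 and C5ar1, and of C5ar2 and Ccr2 overlapped among the IgG libraries. C3ar1 stayed apart from all other members at 225 ± 84.6 CPM per kb. The ratio of C3ar1 to C5ar1 per kb followed the dates, with 4.02 to 6.39 in libraries 1 and 3 and 8.16 to 11.1 in libraries 2 and 4 of both groups.

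**Figure D4:**
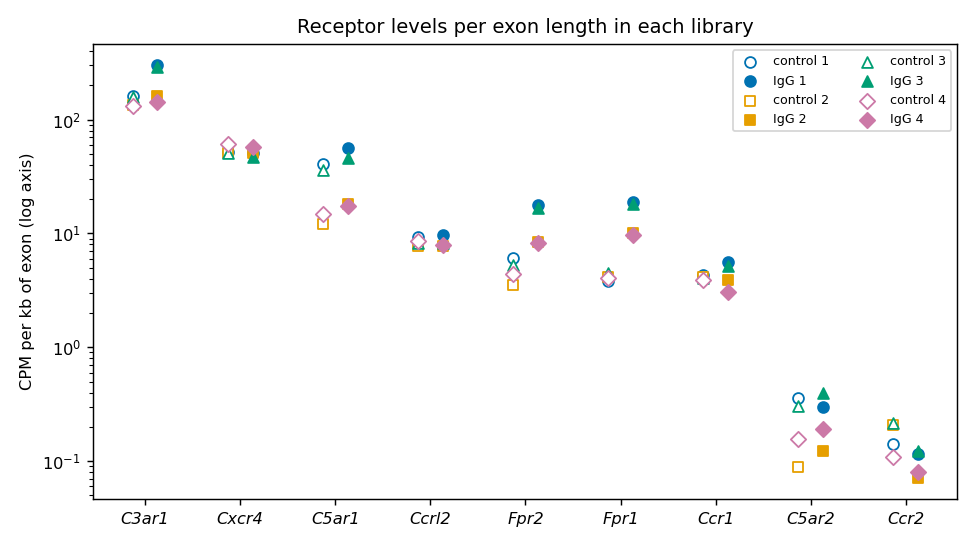
Level of each receptor in CPM per kb of exon (vertical log axis), ordered by the control mean. Open symbols are control and filled symbols IgG libraries, with a colour and shape for each pair. C3ar1 lies between 131 and 304, C5ar2 and Ccr2 lie at or below 0.4, and Fpr1 and Fpr2 move from control means of 4.11 and 4.83 to IgG means of 14.2 and 12.8.

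The genes whose log2 levels over the 8 libraries were most like those of each receptor, among up to 15639 genes with a mean of at least 1 CPM, are given as a description. They share libraries, treatment and date, and were picked for the highest r among many genes over only 8 libraries. For Fpr1 they were Ehd1 (Pearson r = 0.991) and Tmem63a (0.98), and for Fpr2 Lox (0.992) and Mrpl45 (0.988). C5ar1 was most like Ifi44 (0.997) and Gm11127 (0.988), while C3ar1 was most like Rap1b (0.996) and Acp2 (0.995). Ccr1 was most like Stxbp5 (0.994) and Ppip5k2 (0.992). For Ccrl2 they were Gm26811 (0.941) and Fam129a (0.937), for Cxcr4 Dok4 (0.958) and Bmp7 (0.954), and for the sparse genes C5ar2 and Ccr2, Gm6304 (0.98), Gm46522 (0.975), Gm42882 (0.939) and Mtf1 (0.915).

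Most of the other receptors of these families were scarce in the cultures. The lists of these receptors, of ligands and of signalling genes were chosen with earlier results of these data known. Their directions are therefore given as a description. Of 28 genes, 8 were at 0 counts throughout and 9 could be tested, 8 of them higher with IgG and 1 lower (median log2 change 0.35), against 8609 higher and 8928 lower among all genes. In edgeR with the block 0 had an adjusted p under 0.05. At an unadjusted p under 0.05, 4 were higher, where 6.35% of all genes were. The criterion of the study was met by 1, Fpr3, where 1.48% of all genes met it. Without the block Fpr3 did not meet it, with a log2 fold change of 0.74 and an unadjusted p of 0.0171 in edgeR. Cx3cr1, the fractalkine receptor that marks microglia, was at 442 ± 59.7 CPM in control and 584 ± 97.4 CPM with IgG (SD, n = 4 each). The fitted log2 change was 0.39 (SE 0.119, adjusted p = 0.357 in edgeR). Within pairs it averaged 0.62 in pairs 1 and 3 and 0.16 in pairs 2 and 4, along the split of the mitochondrial share, whose part was not tested. Xcr1, the receptor of dendritic cells for Xcl1, and Ccr3, an eotaxin receptor, stayed at or under 1.25 CPM in every library, with log2 fold changes of 1.00 and 0.87 (adjusted p = 0.421 and 0.45 in edgeR).

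Ligands of the receptors and their precursors were counted in the same cultures. Of 18 genes 15 were tested, 12 higher and 3 lower with IgG, with a median log2 fold change of 0.19. After adjustment 2 had risen (0.393% of all genes), and 4 met the criterion of the study (C3, Ccl5, Ccl7 and Ccl12, against 1.48% of all genes). Without the block 3 met it (C3, Ccl5 and Saa3), against 0.582% of all genes. The median over all genes was -0.01, with 8609 higher and 8928 lower. C3, the precursor of the C3ar1 ligand, went from 439, 336, 420 and 296 CPM in control libraries 1 to 4 to 989, 564, 946 and 470 CPM in IgG libraries 1 to 4. The lowest IgG library was above the highest control library, and the log2 fold change was 0.94 (SE 0.119, adjusted p = 0.0239 in edgeR with the block and 0.643 without it). The change of C3 averaged 1.17 in pairs 1 and 3 and 0.70 in pairs 2 and 4, along the split of the mitochondrial share, whose part was not tested.

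Ccl5, a ligand of Ccr1, went from 179, 118, 157 and 68.1 CPM in control libraries 1 to 4 to 372, 312, 254 and 209 CPM in IgG libraries 1 to 4. The groups did not overlap, and the log2 fold change was 1.19 (SE 0.15, adjusted p = 0.0222 in edgeR with the block and 0.643 without it). Unlike that of C3, the change of Ccl5 was smaller in pairs 1 and 3 (0.88 on average) than in pairs 2 and 4 (1.51). Without replicate 2 the adjusted p was 0.183 for C3 and 0.224 for Ccl5 in edgeR. It was also over 0.05 without replicate 1 for both genes (0.105 and 0.059), and without replicate 3 for C3 (0.106). The Ccr2 ligands Ccl7 and Ccl12 had log2 fold changes of 1.24 and 0.72 (adjusted p = 0.268 and 0.182 in edgeR) from control levels of 0.812 ± 0.455 and 2.92 ± 1.68 CPM (SD, n = 4 each). Of the Fpr2 ligands, Saa3 was at 160 ± 40.3 CPM in control and 272 ± 74.7 CPM with IgG, and the groups did not overlap. Its log2 fold change was 0.75 (adjusted p = 0.397 in edgeR with the block), with 0.15, 1.14, 0.09 and 1.65 in pairs 1 to 4. Anxa1 was at 535 ± 10.1 and 539 ± 63.0 CPM (log2 fold change 0.01, adjusted p = 0.986 in edgeR with the block).

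All 33 genes listed for signalling downstream of the receptors were tested, 25 higher and 8 lower, with a median log2 fold change of 0.09, against 8609 higher and 8928 lower among all genes. After adjustment 1 had risen, where 0.393% of all genes had. This was Rac2, the Rac GTPase of blood cells, at 251 ± 18.8 CPM in control and 393 ± 50.5 CPM with IgG (SD, n = 4 each), with a fitted log2 change of 0.64 (SE 0.0951, adjusted p = 0.0381 in edgeR with the block and 0.373 without it). With the block, Rac2 missed the threshold without replicate 1, 2 or 3 (adjusted p = 0.219, 0.20 and 0.239 in edgeR). The phosphoinositide 3-kinase gamma subunits Pik3cg and Pik3r5 had values of 0.48 and 0.33, and the exchange factor Vav1 0.30, none past adjustment (adjusted p = 0.387, 0.277 and 0.289 in edgeR). The change of Pik3cg averaged 0.84 in pairs 1 and 3 and 0.12 in pairs 2 and 4, along the split of the mitochondrial share. The averages were 0.43 and 0.24 for Pik3r5 and 0.29 and 0.31 for Vav1. The part of that share in these values was not tested.

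**Figure D5:**
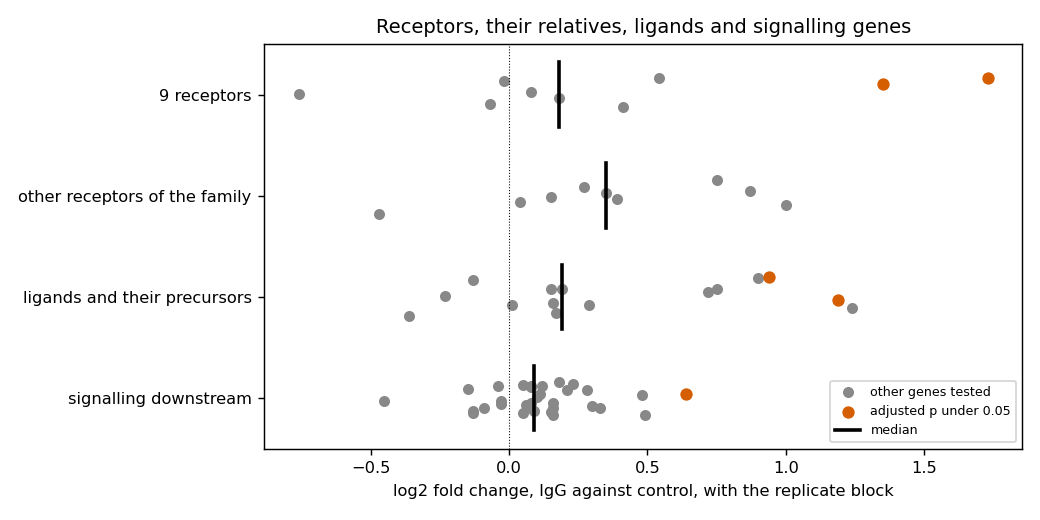
Fitted log2 fold change with the replicate block (horizontal axis) of each tested gene among the 9 receptors, 9 other receptors of the families, 15 ligands or precursors and 33 signalling genes. Orange points have an adjusted p under 0.05 over all genes, black bars are medians, and the vertical scatter within a row carries no information. The orange points are Fpr1 and Fpr2, C3 and Ccl5, and Rac2, and the medians are 0.18, 0.35, 0.19 and 0.09 from top to bottom.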

How the data were processed

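Poly(A) RNA was sequenced from 4 control and 4 IgG libraries. The deposited values are raw counts for each Ensembl gene, and neither a scaling nor a gene filter had been applied by the authors. The submitters' processing notes name HISAT2 2.2.1, SAMtools 1.12, Picard 2.26.3, R 4.1.2, featureCounts, edgeR 3.36.0 and the build GRCm38. The annotation used for counting, the use of strand and the treatment of multiply aligned reads are not given in the sources used here, so genes that overlap or resemble each other are uncertain as single genes.

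Symbols, coordinates and exon lengths came from GENCODE M21 (GRCm38), which held 55144 of the 55385 identifiers. Counts were scaled with TMM, filtered with filterByExpr (17537 genes kept), and edgeR 4.0.16 (R 4.3.3) fitted its quasi-likelihood model with the replicate number as a block and Benjamini-Hochberg adjustment over all genes tested. CPM values used the TMM-scaled library sizes, and log2 CPM a prior count of 2. The standard error was the log2 fold change divided by the root of F. The replicate numbers pair the samples, since the labels give same-numbered libraries the same date, with a different date for each pair. The correlation of deviations from the group mean, over 11928 genes, was 0.468, 0.429, 0.28 and 0.326 within pairs and -0.384 to 0.278 otherwise. No 2 libraries of a group agreed within sampling noise (chi-square per degree of freedom at least 5). The labels name no separate animals, so p-values measure the spread between cultures of these dates.

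The 9 receptors and the lists were chosen with earlier results of these data known. From each list, the genes past adjustment were named, with those of lowest p up to 4, and for each receptor the 2 genes most like it. In addition, Saa3 and Anxa1 were named as ligands of Fpr2. Alternatives were the fit without the block, median-ratio scaling, library totals, no count filter or at least 10 counts in every library, the likelihood ratio test, DESeq2 1.42.0, limma-voom (limma 3.58.1), removal of trends on GC content and length (lowess span 0.3), and the omission of each pair. Promoter windows from RefSeq were searched over the 250 bases before the start. The 50 bases after it were not used. Some marker genes are not reported here.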

Additional observations from a re-analysis of the deposited data

Results flagged for a closer look

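Among 42 groups of 4 libraries checked for a library far from the others, 1 stood out. Cxcr4 in control library 4, at 111 CPM, was separated from the other control libraries (92.2 to 93.8 CPM) by 0.919 of the range of the group. IgG library 4 was also the highest of its group, at 104 CPM. A gap of this kind arises by chance in about 1 of 20 groups.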

How the results depend on the processing

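Without the replicate block, 0 receptors, 0 ligands and 0 signalling genes had an adjusted p under 0.05 (Fpr1 0.109, Fpr2 0.492), against 2, 2 and 1 with it. The count over all genes was 0 without the block, 37 with library totals alone, 376 with no filter, 327 with the likelihood ratio test, 233 with DESeq2, 213 with GC content and length trends removed and 69 in the reported fit. The number meeting the criterion of the study was 320, against 148 without the block, 648 with no filter and 528 with the likelihood ratio test. When pairs were left out in turn, it ranged from 215 to 762, and the count past adjustment from 0 to 182. In these fits 0 to 2 receptors, 0 to 2 ligands and 0 to 1 signalling genes passed. The likelihood ratio test called 1 of the other receptors (Fpr3, adjusted p = 0.0455) and 4 ligands. Library totals alone left 1 ligand and 0 signalling genes, and no filter gave 5 and 2. Among the receptors, C3ar1 passed with no filter (adjusted p = 0.00678) and in DESeq2 (0.0348), and C5ar1 in the likelihood ratio test (0.0284). Ccr1 turned to -0.02 with library totals alone, -0.01 with GC content and length trends removed and between -0.03 and 0.20 when pairs were left out, and Ccrl2 ranged from -0.05 to 0.00 in the latter fits, with 0.00 without replicate 4. Library totals alone moved the median of all genes to -0.11. The causes of these changes were not tested. Fpr1, Fpr2, C3ar1 and C5ar1 stayed above 0 and Ccr2 and Cxcr4 below 0 in all 13 alternatives. C5ar2 and Ccr2 rest on 7 to 35 counts per library.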
